A study of Mus musculus with 36 samples.

Results

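Quadruple knockout epiblast-like cells (QKO EpiLCs), which lack JARID2 on top of all 3 Polycomb-like proteins (PHF1, MTF2, PHF19), were compared with triple knockout (TKO) EpiLCs, which lack the Polycomb-like proteins only. The comparison took the 3 QKO and 3 TKO EpiLC libraries, 6 of the 36 RNA-seq libraries of the series, and all genes in them. Both groups were C57BL/6 by label, and both had spent 2 days in NDiff227 medium with activin A at 20 ng/ml, bFGF at 12 ng/ml and KSR at 1% on fibronectin. The mutant embryonic stem cells (ESCs) they came from were grown in serum with LIF and inhibitors of GSK3 and MEK. According to the study's methods the TKO and QKO lines came from different laboratories, so the added loss of JARID2 and any other difference between the lines cannot be told apart. The same 2 lines as ESCs, a JARID2 knockout (J2KO) with its control (J2WT) in EpiLCs, and the control EpiLCs of the TKO and QKO lines (PclWT), each with 3 libraries, served for reference. Whether libraries are separate cultures is not stated by the labels, so the p-values may rest on technical spread only. Over tested genes, TKO EpiLC replicates 1 and 2 differed by 1.15 times the variance expected from read sampling alone. Pairs with QKO EpiLC replicate 2 gave 30.0 and 35.9 times, and the remaining pairs within QKO or TKO EpiLCs 2.04 to 2.17 times. These are means over genes, which a few abundant genes can dominate. In QKO EpiLC replicate 2 only 12 tested genes lay over 2-fold from the group median.

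Polycomb repressive complex 2 (PRC2) trimethylates histone H3 at lysine 27 and keeps developmental genes silent. Its core is shared by PRC2.1, which carries a Polycomb-like protein, and PRC2.2, which carries JARID2 and AEBP2. Canonical PRC1, which holds a CBX protein that reads this mark, adds to the repression. EpiLCs stand for the cells of the early post-implantation epiblast, in which naive pluripotency genes are switched off and formative genes are switched on. With the Polycomb-like proteins absent from both groups, the comparison asks what the presence of JARID2 changes in cells without PRC2.1.

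The targeted genes were read first. Jarid2 (chr13:44729474-44921643, GRCm38) stood at 497, 484 and 495 CPM (read counts relative to library size) in the QKO EpiLC libraries and at 523, 530 and 569 CPM in the TKO EpiLC libraries. All QKO values lay below all TKO values, but the log2 fold change was only -0.15, and a count summed over the whole gene cannot show the loss of an exon. Mtf2 was at 34.6, 38.8 and 36.9 CPM in QKO and 43.5, 48.8 and 40.6 CPM in TKO, against 223 ± 22.4 CPM (SD, n = 3) in PclWT EpiLCs. Phf1 stayed below 0.5 CPM in all 6 mutant libraries, against 7.8 CPM in PclWT, and was too low to test. Phf19 was called lower in QKO, at 1.01, 1.36 and 0.599 CPM against 2.85, 2.16 and 2.27 CPM (log2 fold change -1.37 ± 0.31, SE; adjusted p = 8.7e-04 by edgeR). The core subunits Ezh2 (-0.05), Eed (0.21) and Suz12 (0.31) were not called, and among 31 tested PRC1 genes Cbx8 alone was called, with a log2 fold change of 1.10 that was 0.92 without TKO replicate 2.

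Of 55401 genes in the files, 12762 had a mean normalised count of at least 15 and were tested. A gene was called with an adjusted p below 0.05 and a difference of more than 2-fold. More genes fell than rose in QKO EpiLCs: 421 were called lower, 3.30% of those tested, and 194 higher, 1.52%. Without the fold limit 2973 genes (23.3%) passed higher and 2811 (22.0%) lower, and the median log2 fold change over all tested genes was 0.012, so most differences were below 2-fold. The libraries of both groups did not overlap for 606 of the 615 called genes, and this was also true of 52.7% of all tested genes. Counts in genes were 9676674, 8880984 and 11253158 in QKO and 10599906, 9057119 and 6784578 in TKO EpiLC replicates 1, 2 and 3.

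QKO EpiLC replicate 2 stood apart in reads from ribosomal RNA genes, which made up 4.28% of its counts against 0.424% and 0.488% in the other QKO libraries and 0.188% to 0.265% in TKO. Lars2, a mitochondrial leucyl-tRNA synthetase gene whose locus also collects ribosomal RNA reads, was at 3269 CPM in that library, at 324 and 282 CPM in the other QKO libraries and at 132 to 172 CPM in TKO. Its log2 fold change of 3.06 was 0.96 without the library, and Lars2 was then not called. Without QKO replicate 2, 186 genes were called higher and 462 lower.

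The largest rise among named protein-coding genes was that of Mest, an imprinted gene of the mesoderm (chr6:30723547-30748465). Mest was at 112, 102 and 103 CPM in QKO and at 4.36, 3.3 and 3.26 CPM in TKO EpiLCs (log2 fold change 4.81 ± 0.09, adjusted p = 1.6e-20). The QKO level lay near that of PclWT EpiLCs (75.5 CPM), and the TKO level lay far below both. Aqp3, a water and glycerol channel, and Lpar1, a receptor for lysophosphatidic acid, led the rises among genes that acquire PRC2 in EpiLCs. Vrtn, a gene known for its part in vertebral number, led the falls among genes that lose PRC2. These 4 genes had the largest rise among named protein-coding genes, the largest rises among recruited targets and the largest fall among displaced targets. Their promoters are shown for this reason and because PRC2 binds CpG-rich DNA. Each is the RefSeq window (GRCm38.p6) from 250 bases before to 50 bases after a transcription start, written 5′ to 3′ along the gene, with every CG in capitals. Where RefSeq gave several starts, the window with the most CGs is shown.
Aqp3 (chr4:41098134-41098433, minus strand): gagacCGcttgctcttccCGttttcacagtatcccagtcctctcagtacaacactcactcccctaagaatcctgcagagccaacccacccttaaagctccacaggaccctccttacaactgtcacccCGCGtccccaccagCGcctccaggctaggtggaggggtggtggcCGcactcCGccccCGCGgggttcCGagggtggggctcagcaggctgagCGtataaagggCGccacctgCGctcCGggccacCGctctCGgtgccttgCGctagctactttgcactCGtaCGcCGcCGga
Lpar1 (chr4:58553244-58553543, minus strand): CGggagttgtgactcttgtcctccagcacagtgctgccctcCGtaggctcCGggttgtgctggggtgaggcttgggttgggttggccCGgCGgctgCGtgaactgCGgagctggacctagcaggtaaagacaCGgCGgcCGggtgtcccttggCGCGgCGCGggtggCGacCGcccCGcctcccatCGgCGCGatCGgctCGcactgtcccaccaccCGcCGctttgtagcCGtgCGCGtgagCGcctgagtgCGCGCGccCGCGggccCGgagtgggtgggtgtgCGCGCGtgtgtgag
Mest (chr6:30737800-30738099, plus strand): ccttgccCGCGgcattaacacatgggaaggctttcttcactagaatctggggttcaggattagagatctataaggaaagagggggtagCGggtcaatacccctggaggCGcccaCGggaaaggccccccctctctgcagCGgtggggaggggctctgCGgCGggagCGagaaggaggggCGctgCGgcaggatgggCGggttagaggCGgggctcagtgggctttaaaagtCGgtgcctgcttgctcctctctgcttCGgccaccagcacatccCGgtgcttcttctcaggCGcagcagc
Vrtn (chr12:84642305-84642604, plus strand): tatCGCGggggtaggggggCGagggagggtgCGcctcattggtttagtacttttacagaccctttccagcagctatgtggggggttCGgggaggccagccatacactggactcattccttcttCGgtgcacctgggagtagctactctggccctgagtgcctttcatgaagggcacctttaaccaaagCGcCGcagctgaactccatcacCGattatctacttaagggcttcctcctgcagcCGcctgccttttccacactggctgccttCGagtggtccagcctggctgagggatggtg

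The Lpar1 window holds 37 CG pairs, and 5.58% of the 32851 windows of this length in the table hold at least as many. The windows of Aqp3, Mest and Vrtn hold 21, 17 and 11, reached by 24.8%, 31.4% and 41.4% of windows. These shares cover every window of every gene, while Lpar1, Mest and Vrtn are each shown by the richest of 3 windows. For those genes the shares are therefore not like for like. At least 1 CG was present in 94.57% of all windows. The counts describe the letters only.

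The largest falls included several regulators of development. Hivep2, a zinc finger transcription factor gene, was at 1.72, 0.565 and 0.855 CPM in QKO and at 19, 19 and 15.2 CPM in TKO EpiLCs (log2 fold change -4.09 ± 0.21, adjusted p = 6.8e-13). Epha1, a receptor of ephrins, was at 7.09, 7.12 and 5.81 CPM against 63.6, 61.5 and 60.6 CPM (-3.24 ± 0.09, adjusted p = 6.0e-18), with 33.5 CPM in PclWT. Insm1, a zinc finger gene of neuroendocrine differentiation, was at 4.36, 4.3 and 3.33 CPM against 36.2, 33.9 and 36 CPM (-3.18), with 3.25 CPM in PclWT. PclWT thus lay with QKO for Hivep2 (0.959 CPM) and Insm1 and between both mutants for Epha1. The glutamate receptor gene Grm6 (-3.85), the extracellular matrix gene Frem2 (-3.26) and the LIM homeobox gene Lhx1 (-3.02) were among the 15 largest falls, all at 2 CPM or less in each QKO library.

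Abundant genes changed as well. Epha2, another ephrin receptor, was at 621, 509 and 619 CPM in QKO and at 246, 227 and 255 CPM in TKO (log2 fold change 1.25). The SUMO protease gene Senp3 was at 700, 683 and 693 CPM against 338, 329 and 339 CPM (1.03), and the deacetylase gene Sirt1 at 300, 288 and 279 CPM against 134, 120 and 131 CPM (1.15). Among abundant falls, Prtg, an immunoglobulin-family receptor gene of the early embryo, was at 74.4, 75.6 and 75.3 CPM against 290, 298 and 291 CPM (-1.98), and the chromatin remodeller gene Chd9 (-1.09) and the cholesterol acyltransferase gene Soat1 (-1.15) fell too. These genes were measured with small spread, so that a difference close to 2-fold still separated the groups.

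The study's ChIP data define recruited targets, whose promoters gain SUZ12 on the way from ESC to EpiLC, and displaced targets, whose promoters lose it. Both classes were chosen by the study on other assays of its own cells. Of 503 recruited genes 317 passed the count filter, and 36 of them rose while 12 fell (11.4% and 3.79%, against 1.52% and 3.30% of all tested genes). Their median log2 fold change was 0.16. Displaced targets went the other way: of 96 genes 75 were tested, 21 fell (28%) and 0 rose, with a median of -0.52. By adjusted p alone 54 displaced targets passed lower and 2 higher, where 22.0% and 23.3% of all tested genes did. Falls were not particular to this class. Maintained targets, a further class whose promoters keep SUZ12, also leaned down, with a median of -0.20. Of 1110 maintained targets tested, 116 fell (10.5%) and 21 rose (1.89%). The list of maintained targets that was read is incomplete, so these counts cover only a part of the class.

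Among recruited targets, Aqp3 was at 35.9, 35.3 and 33.2 CPM in QKO and at 3.56, 4.64 and 5.39 CPM in TKO EpiLCs (log2 fold change 2.96 ± 0.12, adjusted p = 7.1e-15). Lpar1 was at 42.6, 34.1 and 36.2 CPM against 7.48, 6.9 and 7.38 CPM (2.36 ± 0.11, adjusted p = 7.5e-14). In both genes the groups lay far apart, and the QKO level exceeded that of PclWT EpiLCs, at 9.22 CPM for Aqp3 and 21.5 CPM for Lpar1. Tbx3, a T-box repressor that sustains naive pluripotency (chr5:119670669-119684724), was at 138, 147 and 145 CPM against 44.1, 40 and 41.7 CPM (1.75 ± 0.05, adjusted p = 1.2e-17), where PclWT had 8.84 CPM. Tbx3 thus showed a graded order, with PclWT lowest, TKO intermediate and QKO highest. Mreg, which acts in melanosome transport, was at 301, 277 and 279 CPM against 72, 71.8 and 71.6 CPM (1.97). Inhbb, the inhibin beta B subunit of activin B, was at 33.7, 31.9 and 37.3 CPM against 12.3, 9.38 and 8.79 CPM (1.71), and the Wnt deacylase gene Notum (2.04) and the oocyte factor gene Khdc3 (2.06) also rose.

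The 12 recruited targets that fell included Nt5e, the ecto-5′-nucleotidase CD73 (-2.38), the RAS-like gene Rerg (-2.35), the immunoglobulin-family gene Igdcc3 (-2.27) and the Notch ligand Jag1 (-1.58). Igdcc3 was at 8.31, 7.24 and 7.35 CPM in QKO and at 32, 37.9 and 40.4 CPM in TKO. The class therefore held changes in both directions, and rises were 3 times as many as falls. The share that fell (3.79%) was near that of all tested genes (3.30%). Rerg lies in the distal stretch of chromosome 6 described below, and without that stretch 35 recruited targets rose and 11 fell.

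Esrp1, an epithelial splicing regulator (chr4:11331933-11386783), was at 6.89, 6.9 and 6.67 CPM in QKO and at 45.8, 51.1 and 46.2 CPM in TKO (log2 fold change -2.83 ± 0.09, adjusted p = 2.3e-16), with 36 CPM in PclWT. Vrtn was at 3.55, 2.49 and 3.33 CPM against 20.5, 24.8 and 22 CPM (-2.84 ± 0.14, adjusted p = 4.1e-13), with 18.5 CPM in PclWT. Each QKO library lay well below the lowest TKO library for both genes. The zinc finger genes Zfp608 (-2.70) and Bcl11a (-2.40), the Notch ligand gene Dll1 (-1.88) and the DNA methyltransferase gene Dnmt3b (-1.42) fell as well.

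**Figure D1:**
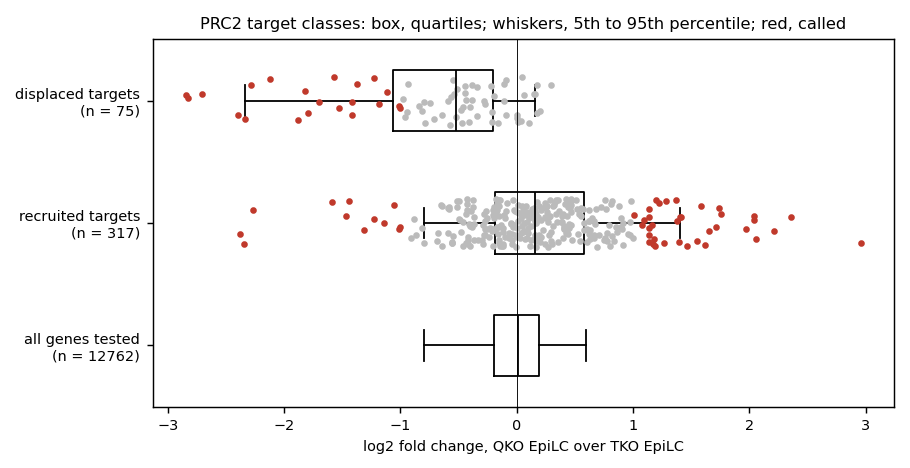
Log2 fold change of QKO EpiLC over TKO EpiLC (x axis) for the displaced targets, the recruited targets and all tested genes (rows); points are genes, called ones in red, boxes show the quartiles and whiskers the 5th to 95th percentile. The displaced targets lie to the left with a median of -0.52, while the recruited targets extend to both sides around a median of 0.16 with most called genes on the right.

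Naive pluripotency genes were higher in QKO EpiLCs. Of 16 tested genes of the naive list 7 rose and 2 fell (43.8% and 12.5%, against 1.52% and 3.30% of all tested genes). By adjusted p alone 14 passed higher, where 23.3% of all tested genes did. The median log2 fold change of the list was 0.96, against 0.012 for all genes. Prdm14, a regulator that holds ESCs in the naive state and directs germ cell fate, was at 15.9, 14.5 and 15.8 CPM in QKO and at 3.38, 2.68 and 3.97 CPM in TKO (2.21 ± 0.15, adjusted p = 5.4e-11). The homeobox gene Nanog was at 416, 481 and 421 CPM against 194, 189 and 212 CPM (1.13 ± 0.06, adjusted p = 3.5e-13). Tfcp2l1 was at 152, 168 and 152 CPM against 64.9, 61.8 and 71.2 CPM (1.24). For all 3 genes the lowest QKO library exceeded the highest TKO library.

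Tbx3, Tcl1 (1.75) and Klf2 (1.20) completed the rises together with the nuclear receptor gene Esrrb, at 366, 387 and 373 CPM against 185, 169 and 193 CPM (1.03). Esrrb lay just past the 2-fold limit and gave 0.99 without TKO replicate 2. Fgf4 (0.99), Klf5 (0.92), Nr0b1 (0.92) and Klf4 (0.62) passed the adjusted p below 2-fold. Klf2 did not follow the order of Tbx3, because PclWT EpiLCs had 174 CPM, QKO 68 to 78.7 CPM and TKO 28.9 to 32.9 CPM. Gbx2 (-1.05) and Dppa3 (-3.08) went the other way. Gbx2 gave -0.98 without QKO replicate 2 and was then not called. Dppa3, which protects methylation marks in the early embryo, was at 0.405, 0.452 and 0.257 CPM in QKO, 3.29, 2.68 and 3.4 CPM in TKO and 53.9 CPM in PclWT.

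Of 19 tested formative and primed genes 5 fell (26.3%, against 3.30% of all tested genes), 1 rose and 13 were not called, with a median of -0.47. Dnmt3b (chr2:153649450-153687730) was at 227, 199 and 217 CPM in QKO and at 551, 560 and 587 CPM in TKO (-1.42 ± 0.05, adjusted p = 5.5e-16). The neural and epiblast gene Sox3 was at 11.7, 13.7 and 13.4 CPM against 47.2, 51.1 and 49.2 CPM (-1.94 ± 0.08, adjusted p = 2.0e-14). Fgf5 (-1.20), Sall2 (-1.25) and the epithelial regulator Grhl2 (-1.74) fell, and Pou3f1 (-0.81) passed the adjusted p only. Otx2, a homeobox gene that drives the exit from the naive state, was the one rise, at 58.2, 56.7 and 62.4 CPM against 12.8, 12.9 and 14 CPM (2.15 ± 0.08, adjusted p = 1.2e-15). Dnmt3a, the partner of Dnmt3b in DNA methylation, passed the adjusted p with 0.79. None of 13 general pluripotency genes was called, and Pou5f1 (0.22) and Sox2 (0.76) stayed below 2-fold.

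**Figure D2:**
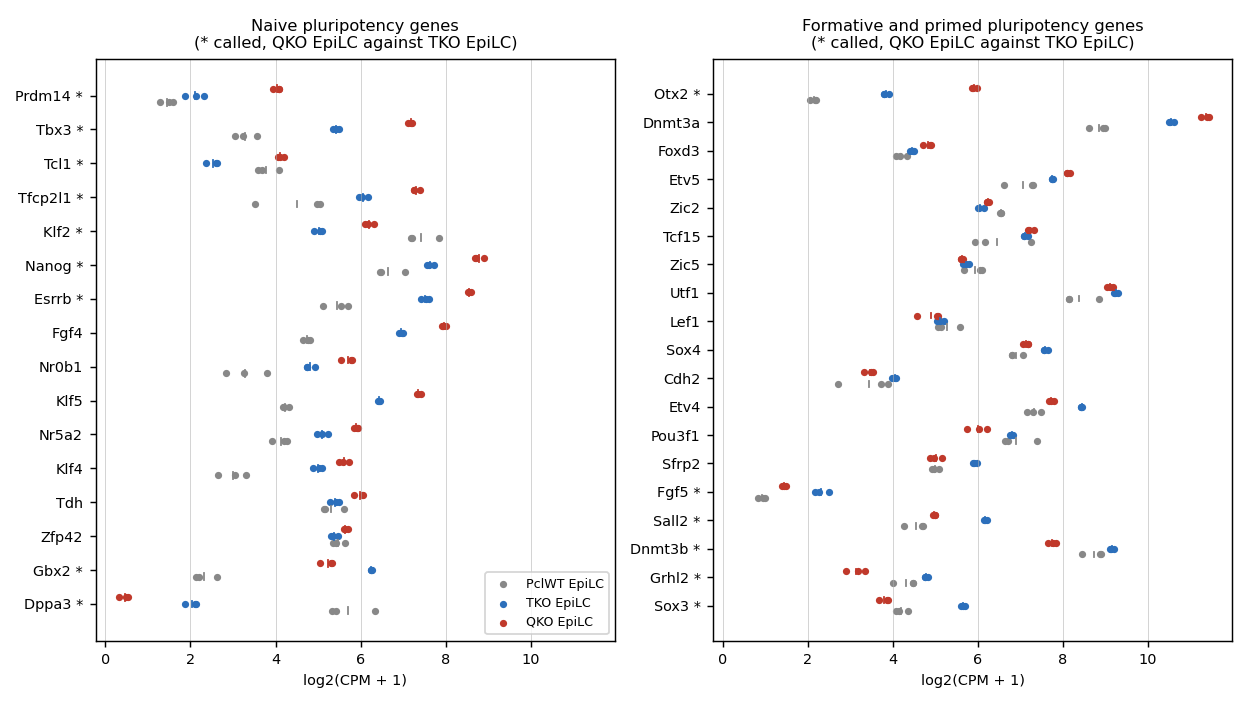
Levels as log2(CPM + 1) (x axis) of each naive gene (left panel) and each formative or primed gene (right panel) in PclWT (grey), TKO (blue) and QKO (red) EpiLCs; points are libraries, ticks are means of 3, and a star marks a gene called between QKO and TKO. In the left panel red lies to the right of blue for all genes but Gbx2 and Dppa3, and in the right panel red lies to the left for Sox3, Grhl2, Dnmt3b, Sall2 and Fgf5 and to the right for Otx2.

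Marker sums described the cultures as EpiLCs with more naive transcripts in QKO. The 8 EpiLC markers summed to 2849 to 3231 CPM in QKO and 2266 to 2420 CPM in TKO EpiLCs, the opposite direction to the median of the formative and primed list. A sum is weighted to its most abundant members, and these markers did not move together. Dnmt3b, Sox3, Fgf5 and Pou3f1 were lower in QKO, while Otx2 and Dnmt3a were higher. The 8 naive markers summed to 1259 to 1370 CPM in QKO and 565 to 627 CPM in TKO EpiLCs. In ESCs the naive markers summed to 5459 to 5509 CPM in QKO and 5734 to 6020 CPM in TKO. The 7 primitive endoderm markers summed to 51.3 to 53.9 CPM in QKO and 105 to 117 CPM in TKO EpiLCs, against 15.5 to 21.5 CPM in PclWT. The 7 feeder and fibroblast markers summed to 9.39 to 9.92 CPM and 8.81 to 12.4 CPM, with Col3a1, Lum and Postn at 0 in all 6 libraries. Neural markers summed to 118 to 133 CPM in QKO and 152 to 157 CPM in TKO, and mesendoderm markers to 11.7 to 14.2 CPM and 10.9 to 12.5 CPM. In bulk RNA, fewer cells of a type and less RNA per cell cannot be told apart, and the part of these cells in the changes above was not tested.

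Of 15 tested primitive endoderm genes 6 fell (40%, against 3.30% of all tested genes) and 0 rose, with a median of -0.91. By adjusted p alone 2 passed higher, where 23.3% of all tested genes did. Cubn, the endocytic receptor cubilin, was at 5.17, 3.51 and 5.3 CPM in QKO and at 36.6, 36.3 and 30.8 CPM in TKO (log2 fold change -2.90 ± 0.12, adjusted p = 3.1e-14), with 0.475 CPM in PclWT. Dab2, an endocytic adaptor, was at 16.3, 15.3 and 15.7 CPM against 44.2, 39.1 and 41.1 CPM (-1.42), and Pdgfra (-1.34) and Srgn (-2.24) fell too. The endoderm regulator Gata6 was at 12.2, 11.5 and 13.5 CPM against 21.5, 25.1 and 30.6 CPM (-1.03), and it gave -0.99 without QKO replicate 2 and -0.92 without TKO replicate 3. The laminin gene Lama1 stood at the limit and was not called in 4 of the 6 fits that left out 1 library, where its log2 fold change was -0.95 to -0.99.

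Hox genes, the classic Polycomb targets that set position along the body axis, changed in both directions, with rises in the HoxA, HoxC and HoxD clusters and falls in HoxB. Of 39 Hox genes 16 were tested, 7 rose and 2 fell (43.8% and 12.5%, against 1.52% and 3.30% of all tested genes), with a median log2 fold change of 0.85. The counts were 13 and 7 without the count filter, 0 fell at a mean normalised count of at least 50, and 4 fell from the summed stranded columns. Hoxa5 was at 27.9, 21.7 and 25.1 CPM in QKO and at 8.99, 8.35 and 8.09 CPM in TKO (1.53 ± 0.11, adjusted p = 2.4e-10), with 0.739 CPM in PclWT. Hoxa9 was at 23.8, 23.6 and 26.3 CPM against 11.6, 10.4 and 7.66 CPM (1.26 ± 0.12, adjusted p = 7.8e-09), with 0.0729 CPM in PclWT. Both showed the order PclWT, TKO, QKO from low to high. Hoxa3 (1.15), Hoxa7 (1.27), Hoxd8 (1.38) and Hoxc13 (1.16) rose as well, and Hoxc13 gave 0.82 without TKO replicate 2. Hoxb1 (chr11:96365752-96368256) was at 1.01, 0.905 and 0.855 CPM in QKO, 8.72, 8.66 and 9.22 CPM in TKO (-3.26 ± 0.21, adjusted p = 3.1e-11) and 2.35 CPM in PclWT. Hoxb4 fell with -1.67.

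Many germline genes are silenced by DNA methylation at implantation. Of 20 tested 3 rose (15%, against 1.52% of all tested genes), 1 fell and 15 passed higher by adjusted p alone, where 23.3% of all genes did, with a median of 0.56. The RNA-binding gene Dazl was at 49.3, 57 and 48.4 CPM in QKO and at 20.6, 20.2 and 17.3 CPM in TKO (1.37 ± 0.08, adjusted p = 7.3e-12), and the testis genes Brdt (1.33) and Tex13b (1.69) rose with it. Prdm1, a repressor that specifies germ cells, had a log2 fold change of -1.11, and -0.96 without QKO replicate 3.

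Imprinted genes are expressed from 1 parental copy. Of 27 tested 7 fell (25.9%, against 3.30% of all tested genes) and Mest rose, 19 were not called, and the median was -0.41. Meg3, a long non-coding RNA of the Dlk1-Dio3 domain (chr12:109541001-109571726), was at 0.608, 0.678 and 0.342 CPM in QKO and at 9.08, 7.94 and 5.82 CPM in TKO (-3.87 ± 0.29, adjusted p = 2.4e-10). Its neighbour Rian was at 1.62, 1.47 and 1.2 CPM against 11.5, 11.6 and 9.36 CPM (-2.96). For both, TKO was close to PclWT, at 8.26 and 10.9 CPM, and QKO was the group that stood apart. Sfmbt2 (-2.14), the cell cycle inhibitor gene Cdkn1c (-1.79), the zinc finger gene Peg3 (-1.43), the growth factor adaptor gene Grb10 (-1.23) and the placental growth gene Phlda2 (-1.18) fell, so the falls came from several domains.

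Of 22 tested genes of epithelial and mesenchymal identity 8 fell (36.4%, against 3.30% of all tested genes) and 0 rose (median -0.62). By adjusted p alone 4 passed higher, where 23.3% of all tested genes did. Beside Esrp1 and Grhl2 the genes that fell were Esrp2 (-1.44, and -0.88 and not called from the summed stranded columns), the tight junction claudins Cldn3 (-2.46), Cldn6 (-1.25) and Cldn7 (-1.69), and the mesenchymal regulators Snai1 (-1.27) and Zeb2 (-1.24). The list thus lost members of both identities. The adhesion gene Cdh1, at 365, 352 and 357 CPM in QKO and 591, 585 and 611 CPM in TKO, passed the adjusted p with -0.75.

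Of 14 tested Notch genes 5 fell (35.7%, against 3.30% of all tested genes) and 1 rose (median -0.67). The ligands Dll1 (-1.88), Dll3 (-1.58) and Jag1 (-1.58) and the modulators Dtx4 (-1.59) and Nrarp (-1.43) fell, and the receptor Notch4 rose, at 18.3, 18 and 15.6 CPM against 4.27, 4.95 and 3.83 CPM (1.95 ± 0.14, adjusted p = 1.0e-10). Of 20 tested FGF and ERK genes 3 fell (15%, against 3.30% of all tested genes) and 0 rose (median -0.39), and 17 were not called. The genes that fell were Fgf5 and the ERK phosphatase genes Dusp4 (-1.23) and Dusp6 (-1.05), and Dusp6 was at 168, 152 and 149 CPM in QKO and 306, 322 and 330 CPM in TKO. The retinoid pathway had 4 falls and 1 rise among 15 tested genes (26.7% and 6.67%, against 3.30% and 1.52% of all tested genes). Cyp26a1, which degrades retinoic acid, was at 0.304, 0.226 and 0.599 CPM against 2.58, 3.3 and 3.83 CPM (-2.98), and the carrier gene Crabp2 fell by 1.62.

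Among 11 tested primitive streak and mesendoderm genes 4 fell (Cdx2, Gata6, Lhx1 and Pdgfra) and 1 rose (Cdx1), so that 45.5% were called against 4.82% of all genes. Of 9 neuroectoderm genes 2 fell and 1 rose (22.2% and 11.1%, against 3.30% and 1.52% of all tested genes). Nes was at 13.1, 9.95 and 10.1 CPM against 36, 33 and 32.3 CPM (-1.64). Of 6 two-cell-like genes 4 fell (66.7%, against 3.30% of all tested genes). The Zscan4 genes among them are near-identical copies that the counting may split, and their values are uncertain. None of 26 glycolysis, 20 integrated stress response and 17 BMP pathway genes was called, where 4.82% of all genes were.

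**Figure D3:**
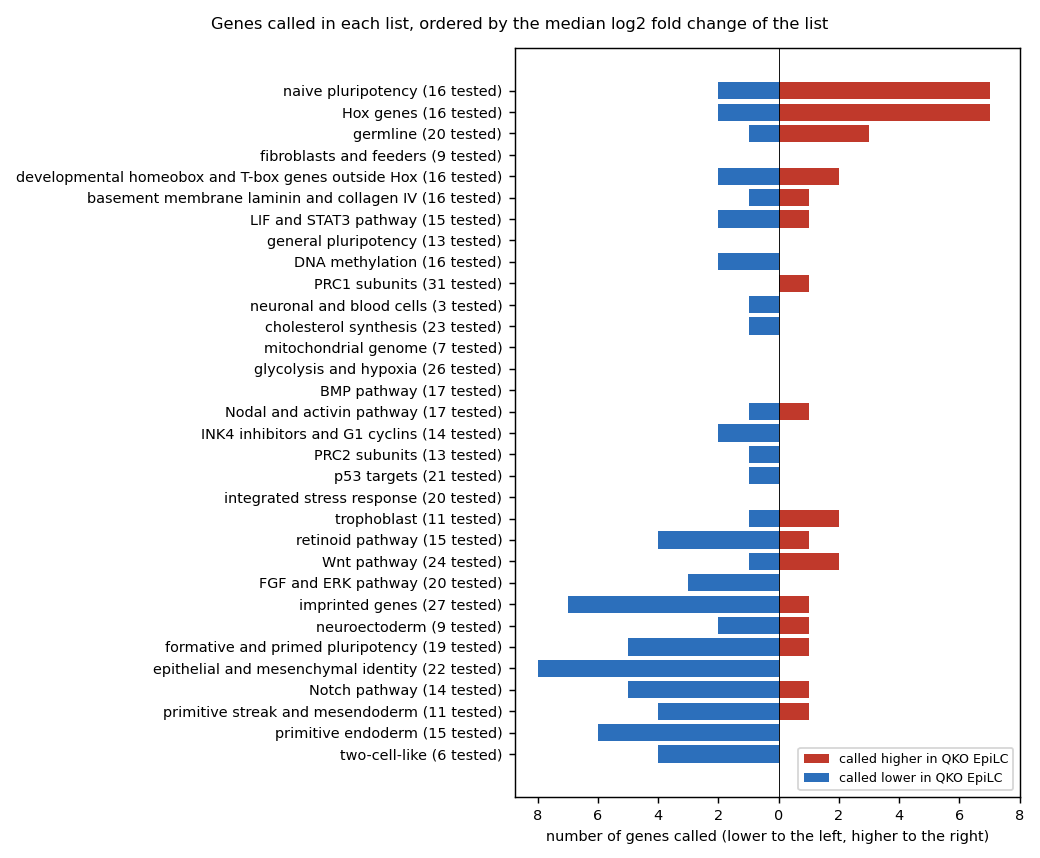
Number of genes called lower (blue, to the left) and higher (red, to the right) in QKO EpiLCs for each gene list (rows, with the number tested), ordered from the highest to the lowest median log2 fold change. Naive pluripotency and Hox genes had 7 rises each. Genes of epithelial and mesenchymal identity (8), imprinted genes (7) and primitive endoderm genes (6) had the most falls.

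Several of the largest and most abundant falls lay on the distal part of chromosome 6. Ccnd2, the gene of cyclin D2 (chr6:127125162-127152193), was at 14.7, 19.9 and 16.9 CPM in QKO and at 142, 146 and 142 CPM in TKO (log2 fold change -3.08 ± 0.06, adjusted p = 8.4e-20), with 15.7 CPM in PclWT. Bcat1, a branched-chain aminotransferase gene (chr6:144993835-145076184), was at 399, 372 and 363 CPM against 852, 857 and 879 CPM (-1.21), with 334 CPM in PclWT. For both genes QKO lay near PclWT, and TKO was the group that stood apart.

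The stretch from 110 Mb to 145 Mb, chosen after its values were seen and therefore given without a test, held 188 tested genes, of which 161 (85.6%) had a negative log2 fold change. Among genes not on chromosome 6 the share was 47.2%. The median over the stretch was -0.43, 23 genes were called lower and 2 higher, and 124 passed lower by adjusted p alone. Among all tested genes 22.0% passed lower by adjusted p alone. The 30 genes from 145 Mb to the end of the chromosome had a median of 0.12, with 4 called lower and 1 higher, and those of the first 110 Mb a median of -0.04. The same stretch had a median of -0.63 in QKO against TKO ESCs, with 160 of 175 genes negative, and of -0.006 in J2KO against J2WT EpiLCs. Gdf3 (-1.14), Dppa3 and Nanog lie in it, and Nanog rose there. Over whole chromosomes the medians in EpiLCs were -0.12 for chromosome 6, -0.12 for chromosome 8 and -0.10 for chromosome X. A cause of the regional shift was not tested. Without the stretch 192 genes were called higher and 398 lower.

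**Figure D4:**
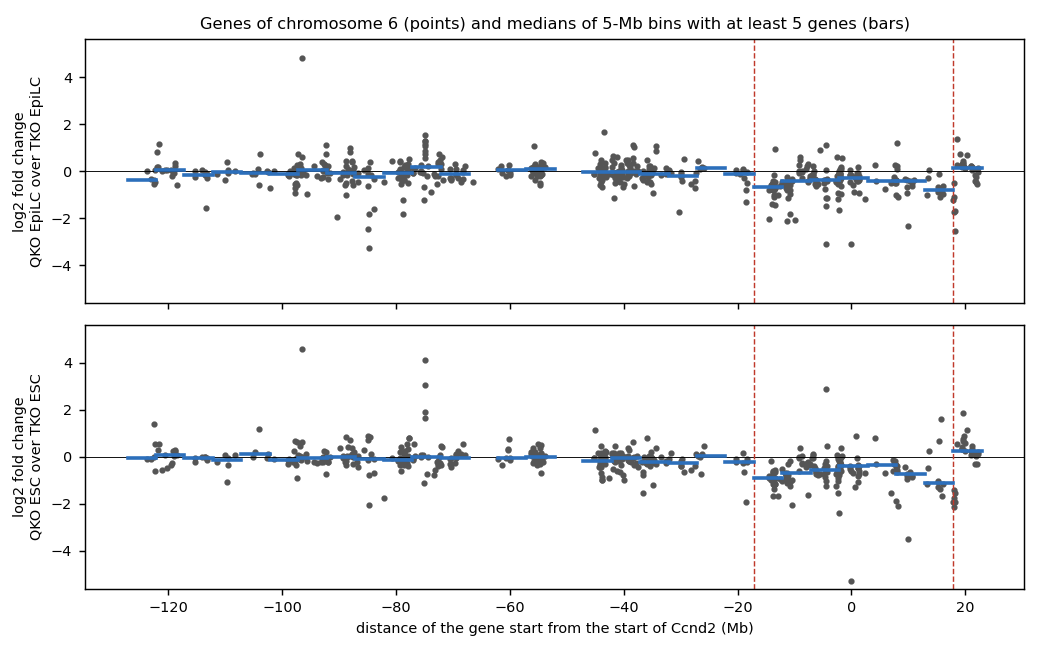
Log2 fold change of QKO over TKO (y axes; EpiLC above, ESC below) of each tested gene on chromosome 6 by the distance of its start from the start of Ccnd2 in Mb (x axis); points are genes, bars are medians of 5-Mb bins with at least 5 genes, and dashed lines mark both ends of the stretch. At both stages the bars lie below 0 between the dashed lines, where the median over all genes of the stretch was -0.43 in EpiLCs and -0.63 in ESCs.

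The same 2 lines were compared as ESCs to ask whether the differences belonged to the EpiLC stage. In QKO ESCs 167 genes were called higher (1.37% of 12169 tested) and 391 lower (3.21%), and the libraries were not shared with the EpiLC comparison. Of the 194 genes that rose in EpiLCs 161 were tested in ESCs, and 35 of them rose there and 3 fell, so that the shared rises made up 21.7% of those 161 genes and 21.0% of the 167 ESC rises. Of the 421 that fell 207 were tested in ESCs, and 78 fell there and 4 rose, making up 37.7% of those 207 and 19.9% of the 391 ESC falls. A test of the difference between the stages called 583 of 12634 genes (4.61%), 342 with the more positive effect in EpiLCs and 241 with the more negative, and 177 of them were among the 615 EpiLC calls.

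Mest belonged to the differences present at both stages, with 21.1 ± 1.22 CPM in QKO and 0.866 ± 0.23 CPM in TKO ESCs (SD, n = 3; log2 fold change 4.57), and the stages did not differ by the test (adjusted p = 0.73 by edgeR). Ccnd2 was lower at both stages, with -5.30 in ESCs. The naive genes differed between the stages: in ESCs 1 of 16 rose, 0 fell and the median was -0.11, and the effects of 9 were called more positive in EpiLCs. Tbx3 was at 565 ± 13.2 CPM in QKO and 530 ± 5.82 CPM in TKO ESCs (0.08), a stage difference of 1.65 (adjusted p = 3.1e-15). Prdm14 was at 73.6 ± 2.22 and 55.4 ± 2.29 CPM in ESCs (0.40), a stage difference of 1.78 (adjusted p = 1.2e-09). Nanog was at 1360 ± 19 and 1527 ± 86.1 CPM (-0.17), a stage difference of 1.28 (adjusted p = 9.1e-13). In these genes both lines were at a high level as ESCs, and the lines separated after 2 days of differentiation.

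Aqp3 followed the naive genes, with 280 ± 11.7 CPM in QKO and 243 ± 16.5 CPM in TKO ESCs (0.20) and a stage difference of 2.74. Among 345 recruited targets tested in ESCs 13 rose and 25 fell (3.77% and 7.25%), with a median of -0.06. The shares of all genes tested in ESCs were 1.37% and 3.21%. Displaced targets had 1 rise and 6 falls among 56 tested (1.79% and 10.7%), with a median of -0.07. Both classes thus had more calls than all genes, although their medians were near 0. Hox genes differed from these, as 6 of 12 rose (50%) and 0 fell in ESCs with a median of 1.00. Hoxa9 (3.06) had a larger effect in ESCs. Dppa3 and Notch4 reversed between the stages. Dppa3 was at 9.28 ± 1.88 CPM in QKO and 1.23 ± 0.366 CPM in TKO ESCs (2.90), and Notch4 at 12.4 ± 0.359 and 31.3 ± 4.42 CPM (-1.34).

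**Figure D5:**
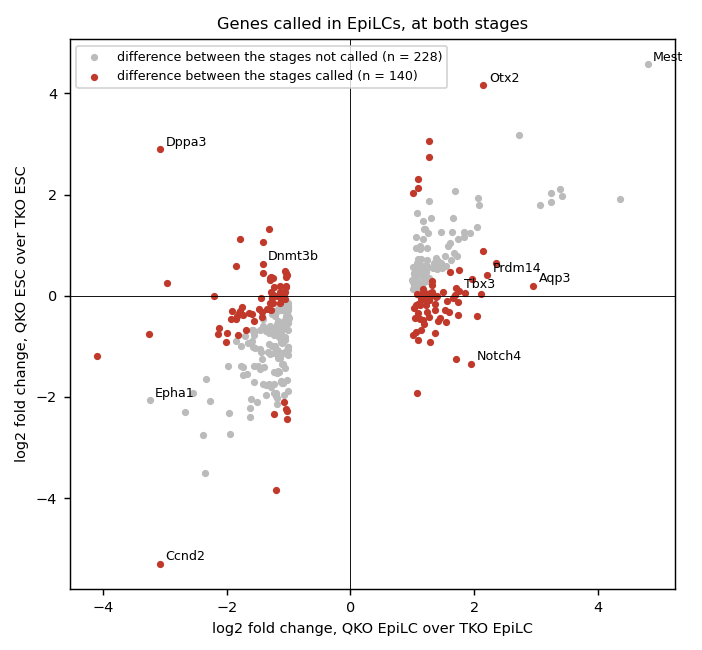
Log2 fold change of QKO over TKO in EpiLCs (x axis) against that in ESCs (y axis) for the called EpiLC genes tested at both stages, each point a gene; red marks the 140 genes whose effects were called different between the stages and grey the 228 others. Mest lies near the diagonal, Tbx3, Prdm14 and Aqp3 near 0 on the y axis, and Dppa3 and Notch4 in quadrants of opposite sign.

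Loss of JARID2 on a background with Polycomb-like proteins was available from J2KO and J2WT EpiLCs, 2 further lines. There 859 genes were called higher (6.23% of 13781) and 361 lower (2.62%), and no library was shared with the QKO and TKO comparison. Of the 194 QKO rises 157 were tested, and 41 also rose in J2KO and 7 fell, which was 26.1% of those 157 and 4.77% of the 859 J2KO rises. Of the 421 QKO falls 363 were tested, and 52 fell and 42 rose in J2KO, which for the shared falls was 14.3% of those 363 and 14.4% of the 361. Recruited targets had 48 rises and 11 falls among 317 tested in J2KO (15.1% and 3.47%), with a median of 0.21.

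Prdm14 rose in both comparisons, in J2KO from a mean of 0.97 to 4.59 CPM (log2 fold change 2.25). Lpar1 (1.49), Otx2 (1.56), Klf2 (1.41) and Esrrb (1.02) had J2KO effects of the same sign as in QKO, while Nanog (-0.04), Tfcp2l1 (0.04) and Tbx3 (0.43) were near 0 or below 2-fold. Of 16 tested primitive endoderm genes 6 fell in J2KO (37.5%, against 2.62% of all tested genes) and 1 rose. The falls included Cubn (-4.25), Gata6 (-3.22) and Pdgfra (-2.19). Ccnd2 went the other way, with 1.47 in J2KO against -3.08 in QKO. A test of the difference between both effects called 1576 of 13539 genes (11.6%), of which 348 were among the 615, and the lines also differ in origin. In J2KO against J2WT the median was 0.50 over 1143 genes of chromosome 11, where 149 of the 859 rises lay, against 0.014 over all genes. On chromosome 14, which holds Otx2, it was 0.24 over 454 genes, with 90 called higher and 8 lower.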

How the data were processed

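Groups came from the sample titles. The authors aligned single-end reads of poly(A) RNA to GRCm38 using STAR, and the deposited values are its read counts per gene, not normalised. The column without strand was used, and reads of a gene mix with those of an overlapping or antisense gene because the libraries carry no strand. Symbols were found for 55141 of 55401 genes.

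Levels are CPM scaled by TMM over all 36 libraries. The 6 libraries were fitted in edgeR 4.0.16 (R 4.3.3) and tested by quasi-likelihood, with Benjamini-Hochberg adjustment over all tested genes. The filter (a mean normalised count of 15) and the limits (adjusted p of 0.05, 2-fold) follow the study's methods. The differences between stages and between lines were contrasts of 4 groups. A target gene has a transcription start within 2000 bp of a site that the study classed, and genes near sites of several classes were left out. In a simulation on these libraries, 200 of 200 genes changed 3-fold or 6-fold, up or down, were called. These sizes lie past the 2-fold limit, so the recovery of changes near 2-fold was not tested. Precision is limited by 6784578 to 11253158 counts per library.

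Named genes are the targeted genes, list members, the 15 called genes of largest fold change in each direction with libraries that did not overlap, the 10 recruited and 5 displaced targets of largest change, the 10 most abundant called genes in each direction, and the 5 largest stage and line differences in each direction, without clone names. The members, lists and rule were chosen with earlier results of these data known. Alternatives were DESeq2 1.42.0, other normalisation, filters and count columns (the stranded columns summed), the replicate number as a block, 18 libraries in 1 fit, and each library left out. Figures were drawn in Python 3.11.15. Some genes that the rule names are not reported here.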

Additional observations from a re-analysis of the deposited data

Results flagged for a closer look

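The effects of QKO against TKO were called different between EpiLCs and ESCs for 583 genes. Among genes also called in EpiLCs, the differences (EpiLC effect minus ESC effect, log2) that were most positive were those of Notch4 (3.27), Adgrd1 (2.99), Inhbb (2.94), Aqp3 (2.74) and Crmp1 (2.61). The most negative among those reported were Dppa3 (-5.99), Gsx1 (-4.74), Itga1 (-4.29) and Tmem54 (-3.57). Each was called by edgeR's test of the difference itself.

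The effects of QKO against TKO and of J2KO against J2WT in EpiLCs were called different for 1576 genes. Among genes also called between QKO and TKO, the differences were most positive for n-R5-8s1 (4.85), Mest (4.21), Rhox5 (3.72), Mir6236 (3.42) and Lars2 (3.25), of which n-R5-8s1, Mir6236 and Lars2 were far higher in QKO EpiLC replicate 2 than in the other libraries. The most negative were Ccnd2 (-4.54), St8sia3 (-4.40), Parp8 (-4.10), Hivep2 (-4.01) and Frem2 (-3.98). The transcriptional regulator gene Hivep2 was at 1.72, 0.565 and 0.855 CPM in QKO and at 19, 19 and 15.2 CPM in TKO EpiLCs, against 0.959 CPM in PclWT. Groups of 3 libraries were not tested for outlying samples.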

How the results depend on the processing

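Calls depended on the count filter and little on the other settings. Without a filter 353 genes were called higher and 732 lower, with 20 recruited targets lower. With a mean normalised count of at least 50 the counts were 112 and 195, and the stage and line differences numbered 338 and 945. DESeq2 gave 190 higher and 415 lower, and the replicate block 199 and 412. Same-numbered QKO and TKO libraries did not deviate together (correlations of -0.143 to -0.001 across genes). With 3 libraries per group these correlations cannot tell whether same-numbered libraries share a culture or a preparation. Each library left out in turn gave 186 to 225 higher and 390 to 462 lower, and 537 to 583 stage and 1533 to 1579 line differences. Of 119 genes followed by name, 106 kept their call under every alternative run for them and 0 reversed, and 13 lost it under at least 1. Genes with few counts and differences near 2-fold are limited by depth. PclWT EpiLC replicate 1 lay over 2-fold from its group median for 1211 genes, so PclWT means are a rough reference.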
